A study of Mus musculus with 24 samples.

Results

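Genes of the NRF2 antioxidant pathway, 10 in number, were followed through a day in mouse heart. They are the transcription factor gene Nfe2l2, its inhibitor Keap1, the glutathione synthesis genes Gclc and Gclm, the glutathione transferase genes Gsta3 and Gsta4, and the defence enzyme genes Nqo1, Hmox1, Txnrd1 and Srxn1. They were taken by name as the genes of this pathway, 10 of 22180 genes on the array. Each was read by 1 probe set, except Keap1 with 2, whose mean was used. All samples came from male, wild-type C57Bl/6 mice, 8 weeks old, in 12 h of light and 12 h of dark, and the labels name no treatment. Myocardium was taken at 6 times of day, written as ZT for zeitgeber time, which counts hours from lights-on: the light times ZT03, ZT07, ZT11 and the dark times ZT15, ZT19, ZT23. Each time had 4 arrays that the labels call biological replicates, 24 in all. The comparisons address how these transcripts change over a day and which times differ.

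NRF2, the product of Nfe2l2, is a transcription factor that binds antioxidant response elements together with a small MAF protein. KEAP1 holds it in the cytoplasm and directs its degradation until oxidants or electrophiles modify KEAP1, so NRF2 activity is set to a large part at the protein level. Its known targets supply glutathione, conjugate or reduce reactive compounds, break down haem and keep the thioredoxin and peroxiredoxin systems reduced. In heart muscle the pathway is known for its part in limiting oxidative damage, and in other tissues Nfe2l2 has been described as a target of the circadian clock. The values here are RNA of whole tissue, and fewer cells of a type and less RNA per cell cannot be told apart.

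The promoters of 3 of the genes whose RNA had a daily rhythm are shown because each holds the core of the antioxidant response element, TGACNNNGC, within 250 bases before a transcript start. The match is in capitals. The sequences end at the base before the annotated gene, and bases are counted backwards from 1 there. The last 20 bases of the window of Gsta3 and the last 70 of that of Gclm lie inside the annotated gene and are not shown. They are RefSeq sequences of the build GRCm38.p6, at chr1:21240335-21240564 (plus strand) for Gsta3, chr3:122245307-122245486 (plus strand) for Gclm and chr2:75704664-75704913 (minus strand) for Nfe2l2.
Gsta3: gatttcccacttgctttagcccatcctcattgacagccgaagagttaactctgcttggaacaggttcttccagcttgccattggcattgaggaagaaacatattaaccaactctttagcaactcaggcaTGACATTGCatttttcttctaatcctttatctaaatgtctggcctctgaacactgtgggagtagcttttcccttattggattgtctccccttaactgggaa
Gclm: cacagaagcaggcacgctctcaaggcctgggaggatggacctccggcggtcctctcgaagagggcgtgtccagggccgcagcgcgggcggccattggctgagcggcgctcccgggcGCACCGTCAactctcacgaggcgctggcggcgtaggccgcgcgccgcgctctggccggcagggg
Nfe2l2: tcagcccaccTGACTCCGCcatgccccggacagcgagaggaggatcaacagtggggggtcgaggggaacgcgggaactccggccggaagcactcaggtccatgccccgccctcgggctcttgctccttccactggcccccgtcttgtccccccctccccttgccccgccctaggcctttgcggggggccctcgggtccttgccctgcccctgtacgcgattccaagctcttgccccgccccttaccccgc
The match lies at bases 101 to 93 before the gene in Gsta3, at bases 64 to 56 in Gclm, where it reads on the opposite strand, and at bases 240 to 232 in Nfe2l2. Windows were given for 7 of the 10 genes, in 9 windows, and Gclc, Gsta4 and Hmox1 had none. Txnrd1, which had no called rhythm, held a match in 1 of its 3 windows, and Keap1, Nqo1 and Srxn1 held none of the motifs searched. On both strands, the response element core was present in 10.2% of 32851 such windows, the E-box CACGTG, a site of CLOCK and BMAL1, in 6.02%, and the D-box TTATGNAA in 3.07%. Neither an E-box nor a D-box in these letters was found in the windows of the 7 genes. With a single kind of motif matched there, no matches overlapped, and a match is a description of letters only.

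Nfe2l2, Gclm, Gsta3 and Hmox1 rose and fell over the day, all with their highest RNA at ZT15, 3 h into the dark, and their lowest at ZT07. The other 6 genes had no called 24-h rhythm, and Gclc, the partner of Gclm, had its highest mean at ZT07, where Gclm was lowest. In limma's moderated test with Benjamini-Hochberg adjustment over 22180 genes, 4 of the 10 had a 24-h rhythm, against 7.61% of all genes. All 4 peaked in the dark, as did 3.78% of all genes, and none in the light, where 3.83% of all genes did. At an unadjusted p below 0.05 there were 6 of 10, against 19.5%. The median amplitude (peak minus mean, log2) was 0.11 over the 10 genes and 0.040 over all genes. Any difference among the 6 times was called in 5 of the 10 (background 4.72%), the same 4 and Nqo1. Night against day was called in 2 of the 10 (background 4.39%), Gclm and Gsta3, both higher at night (1.89% of all genes were higher and 2.49% lower). At an unadjusted p below 0.05 there were 7 of 10, against 16.4%, and the median difference was 0.077 over the 10 genes and 0.0021 over all genes. All values are log2 differences from a gene's own median over the 24 arrays. They carry no level that could be set against that of another gene, and the base 2 is an assumption.

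**Figure D1:**
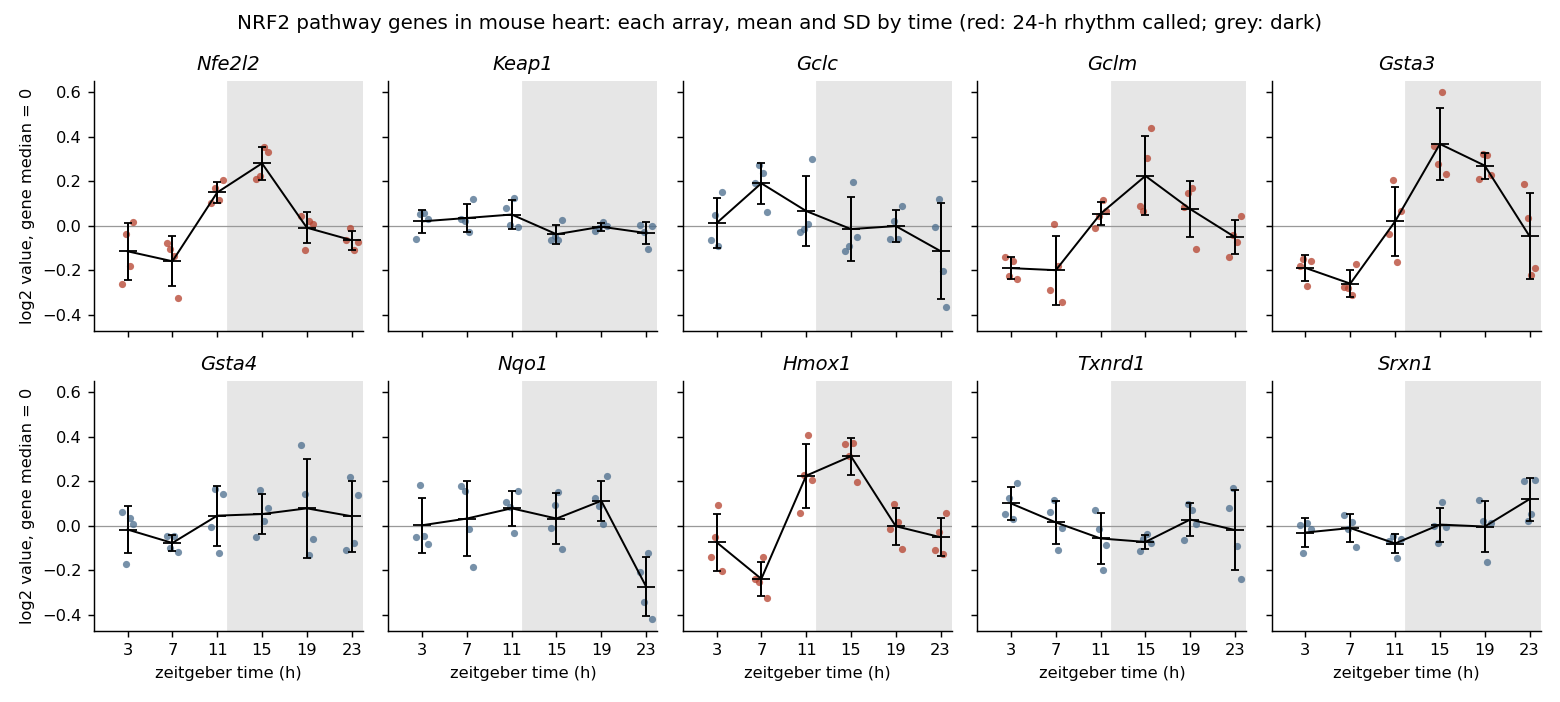
Log2 value of each of the 10 genes on each array (points) against zeitgeber time in h, with the mean and SD of the 4 arrays per time (black) and the dark phase in grey. Genes with a called 24-h rhythm are red: Nfe2l2, Gclm, Gsta3 and Hmox1 are highest at ZT15 and lowest at ZT07, while Nqo1 is low at ZT23.

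Nfe2l2 was above its median late in the light and early in the dark. On replicates 1 to 4, ZT03 had -0.26, -0.04, -0.18 and 0.02, ZT07 had -0.08, -0.10, -0.13 and -0.32, and ZT11 had 0.10, 0.17, 0.12 and 0.21. Of the dark times, ZT15 had 0.21, 0.22, 0.35 and 0.33, ZT19 had 0.04, -0.11, 0.02 and 0.01, and ZT23 had -0.06, -0.01, -0.11 and -0.08. The 8 arrays of ZT11 and ZT15 were thus the 8 highest, and the arrays of ZT15 did not overlap those of any other time. The means fell in the order ZT15 (0.28 ± 0.07, SD, n = 4), ZT11 (0.15 ± 0.05), ZT19, ZT23, ZT03 and ZT07 (-0.16 ± 0.11), and neighbours overlapped from ZT19 on. Its amplitude was 0.19 ± 0.031 (SE, 24 arrays), a 1.31-fold change from trough to peak, with the peak at ZT 14.6 ± 0.60 (SE, in h) and an adjusted p of 0.000494 (limma). Of all genes, 2.64% had a larger amplitude. With ZT11 counted as day, night minus day was 0.11 (95% interval 0.039 to 0.18) and was not called (limma adjusted p = 0.0715). That difference was called without ZT03 replicate 4 (adjusted p = 0.0362).

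Keap1, which encodes the adaptor that brings NRF2 to a ubiquitin ligase, moved little in the mean of its 2 probe sets. Its time means lay between -0.04 ± 0.04 (SD, n = 4) at ZT15 and 0.05 ± 0.06 at ZT11, and the ranges of all neighbouring times in that order overlapped. The amplitude was 0.037 ± 0.016 (SE), below the median of all genes, and was not called (limma adjusted p = 0.350). Night minus day was -0.060 (95% interval -0.11 to -0.013, adjusted p = 0.154). The 2 probe sets of Keap1, fitted singly after the data had been seen, correlated with r = -0.38 over the 24 arrays. The probe set 17524659 had a night minus day of -0.11 ± 0.035 (SE) and a mean of -0.13 ± 0.15 (SD, n = 4) at ZT23, whereas 17515128 had -0.0086 ± 0.038 and 0.067 ± 0.12. The 24-h amplitude was 0.074 ± 0.026 (SE) for 17524659, above the median of all genes (0.040), and 0.0063 ± 0.029 for 17515128, below it. Neither had a called rhythm over 23521 probe sets (limma adjusted p = 0.196 and 0.992).

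Gclm and Gclc encode the modifier and the catalytic subunit of glutamate-cysteine ligase, the enzyme of the rate-limiting step of glutathione synthesis. Gclm was low in the early and middle light, with -0.14, -0.23, -0.16 and -0.24 at ZT03 and -0.29, 0.01, -0.18 and -0.34 at ZT07. It was near its median at ZT11 (-0.01, 0.05, 0.11 and 0.07) and highest at ZT15 (0.09, 0.07, 0.30 and 0.44). At ZT19 it had 0.08, 0.15, 0.17 and -0.11, and at ZT23 -0.14, -0.04, -0.07 and 0.04. Every array of ZT15 was above every array of ZT03 and ZT07, while ZT15 overlapped ZT11 and ZT19. Its amplitude was 0.21 ± 0.032 (SE), a 1.33-fold change with the peak at ZT 15.9 ± 0.59 (SE, in h) (limma adjusted p = 0.000367), and 2.18% of genes had a larger amplitude. At night Gclm was 1.14-fold higher than in the day (log2 0.19 ± 0.046, SE, 12 arrays against 12, limma adjusted p = 0.0146).

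Gclc had its highest mean at the middle of the light phase, where Gclm had its lowest. Its values were 0.19, 0.27, 0.24 and 0.06 at ZT07, its highest time (mean 0.19 ± 0.09, SD, n = 4). They were -0.06, 0.05, -0.09 and 0.15 at ZT03 and -0.03, -0.02, 0.01 and 0.30 at ZT11. Dark values were -0.11, -0.09, 0.19 and -0.05 for ZT15, -0.06, 0.02, -0.06 and 0.09 for ZT19, and -0.01, 0.12, -0.21 and -0.37 for ZT23. Each pair of neighbours in the order of means overlapped, and so did ZT07 and ZT23, the highest and the lowest. Neither the amplitude (0.11 ± 0.039, SE, limma adjusted p = 0.205) nor night minus day (-0.13, 95% interval -0.24 to -0.021, adjusted p = 0.195) was called.

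Gsta3 and Gsta4 encode alpha-class glutathione transferases, which join glutathione to electrophiles. GSTA4 is known for its activity towards 4-hydroxynonenal, a product of lipid peroxidation. Gsta3 had the largest change of the 10 genes. Light values were -0.18, -0.15, -0.27 and -0.16 for ZT03, -0.28, -0.28, -0.31 and -0.17 for ZT07, and -0.04, 0.21, -0.16 and 0.07 for ZT11. They rose to 0.36, 0.28, 0.60 and 0.23 at ZT15 and were 0.21, 0.32, 0.32 and 0.23 at ZT19, before 0.19, 0.04, -0.22 and -0.19 at ZT23. All 8 arrays of ZT15 and ZT19 were above all arrays of the other times, and arrays of ZT23 were spread from the level of ZT03 up to near that of ZT19. The order of means was ZT15 (0.37 ± 0.16, SD, n = 4), ZT19 (0.27 ± 0.06), ZT11, ZT23, ZT03 and ZT07 (-0.26 ± 0.06), with ZT19 and ZT11 as its only neighbours without overlap. The amplitude was 0.31 ± 0.035 (SE), a 1.55-fold change with the peak at ZT 16.7 ± 0.43 (SE, in h) (limma adjusted p = 7.50e-06). Only 0.595% of all genes had a larger amplitude. Gsta3 was 1.27-fold higher at night (log2 0.34 ± 0.050, SE, adjusted p = 0.000225).

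Gsta4 values overlapped between all times. Its 12 night values ran from -0.13 through a median of 0.050 to 0.36, and its 12 day values from -0.17 through -0.026 to 0.17. The highest and lowest time means were 0.08 ± 0.22 (SD, n = 4) at ZT19 and -0.08 ± 0.04 at ZT07, and these overlapped. Its amplitude of 0.066 ± 0.036 (SE) was not called (limma adjusted p = 0.536), and the interval of night minus day, -0.037 to 0.18, includes 0 and lies below the estimate of Gsta3.

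Hmox1 encodes the inducible haem oxygenase, which opens haem to biliverdin, carbon monoxide and iron, and followed Nfe2l2 in its order of times. ZT03 had -0.14, -0.05, 0.09 and -0.20, ZT07 had -0.24, -0.25, -0.14 and -0.32, and ZT11 had 0.06, 0.23, 0.41 and 0.21. At ZT15 they were 0.37, 0.31, 0.37 and 0.20, at ZT19 -0.02, 0.10, 0.02 and -0.10, and at ZT23 -0.11, -0.03, -0.13 and 0.06. All 4 arrays of ZT15 lay above those of ZT19, ZT23, ZT03 and ZT07, and ZT11 overlapped both ZT15 and ZT19. The fall from ZT15 (mean 0.31 ± 0.08, SD, n = 4) to ZT07 (-0.24 ± 0.08) was 1.46-fold. A cosine gave an amplitude of 0.21 ± 0.041 (SE), a 1.35-fold change, with the peak at ZT 14.8 ± 0.73 (SE, in h) (limma adjusted p = 0.00399). The test of any difference among the times gave an adjusted p of 0.000163. Night minus day, with ZT11 in the day, was 0.12 (95% interval 0.031 to 0.20) and was not called (adjusted p = 0.121).

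Nqo1, the gene of a quinone reductase and a standard marker of NRF2 activity, had a different course. At ZT23 all 4 arrays were low (-0.21, -0.34, -0.12 and -0.42), with a mean of -0.27 ± 0.13 (SD, n = 4). The means of the other 5 times lay between 0.0022 at ZT03 and 0.11 ± 0.09 at ZT19, and neighbours among them overlapped. Arrays of ZT23 did not overlap those of ZT03, which had -0.05, 0.18, -0.05 and -0.08, nor those of ZT19, which had 0.13, 0.09, 0.01 and 0.22, nor those of ZT11 and ZT15. They overlapped those of ZT07, which had 0.18, 0.15, -0.02 and -0.19. A cosine was not called (amplitude 0.11 ± 0.042, SE, limma adjusted p = 0.231). Any difference among the times was called (adjusted p = 0.0415), but only just. Leaving out 1 array ended that call for 14 of the 24 (adjusted p up to 0.177), namely replicates 1, 3 and 4 of ZT03, 3 of ZT07, 1, 2 and 4 of ZT11, 2 of ZT15, and 1, 2 and 4 of both ZT19 and ZT23. It was also lost with array weights (0.0543), with the replicate number as a block (0.0561) and without the 3 arrays of lowest weight (0.0878).

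Txnrd1 encodes the cytosolic thioredoxin reductase, and Srxn1 encodes sulfiredoxin, which restores overoxidised peroxiredoxins. Txnrd1 was highest at ZT03 (0.05, 0.12, 0.03 and 0.19) and lowest at ZT15 (-0.11, -0.06, -0.04 and -0.08), the time at which 4 of the other genes peaked. These groups did not overlap, but ZT15 minus ZT03 was -0.17 (95% interval -0.32 to -0.023) and was not called (limma adjusted p = 0.274), nor was the amplitude (0.063 ± 0.029, SE, adjusted p = 0.414). Srxn1 was highest at ZT23 (0.20, 0.02, 0.05 and 0.21), where Nqo1 was lowest, and its lowest time was ZT11 (-0.07, -0.04, -0.14 and -0.06). Its amplitude was 0.063 ± 0.024 (SE, adjusted p = 0.271), and ZT23 minus ZT11 was 0.20 (95% interval 0.082 to 0.32, adjusted p = 0.0629). The latter was called without ZT19 replicate 1, ZT19 replicate 3 or ZT23 replicate 2 (adjusted p down to 0.0336).

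**Figure D2:**
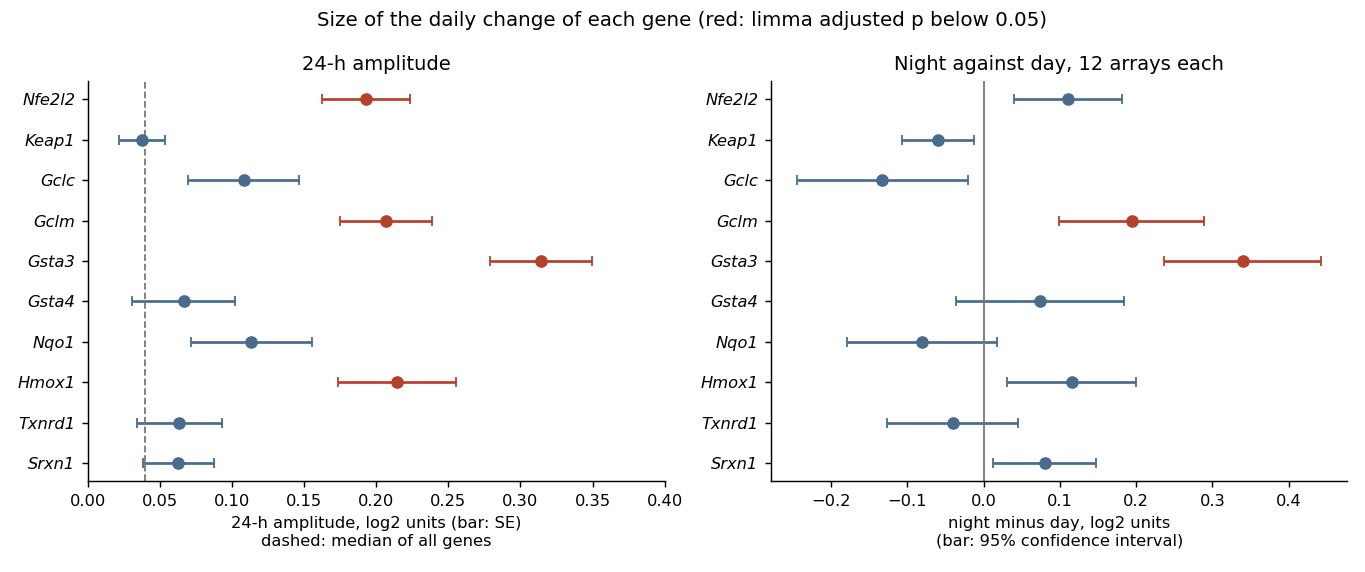
Left, 24-h amplitude in log2 units with its SE for the 10 genes, and the median of all genes as a dashed line. Right, night minus day in log2 units with its 95% confidence interval, 12 arrays against 12. Genes in red passed limma's adjusted threshold: 4 on the left and 2 on the right, with Gsta3 the largest in both.

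Times 12 h apart were compared with 4 arrays each. Between ZT15 and ZT03, 4 of the 10 genes were called, all higher at ZT15, against 3.06% of all genes (1.36% higher and 1.7% lower). The differences were 0.56 ± 0.086 (SE) for Gsta3 (limma adjusted p = 0.000389), 0.41 ± 0.079 for Gclm (0.00339), 0.39 ± 0.059 for Nfe2l2 (0.000279) and 0.39 ± 0.070 for Hmox1 (0.00219). Between ZT19 and ZT07 only Gsta3 was called (0.53 ± 0.086, adjusted p = 0.00250), higher at ZT19, against 1.59% of all genes (0.888% higher and 0.703% lower). Gclm stood at 0.27 (95% interval 0.11 to 0.44, adjusted p = 0.0883) and was called without ZT07 replicate 2 or ZT19 replicate 4 (adjusted p down to 0.0294).

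Between ZT23 and ZT11, Nqo1 and Hmox1 were called, both lower at ZT23, against 2.72% of all genes (1.76% lower and 0.965% higher). Nqo1 differed by -0.35 ± 0.082 (SE, limma adjusted p = 0.0194) and Hmox1 by -0.28 ± 0.070 (adjusted p = 0.0343). The Nqo1 call was lost without replicate 2 or 4 of ZT11 or of ZT23 (adjusted p up to 0.0842). The Hmox1 call was lost without replicate 2, 3 or 4 of ZT11 or replicate 1, 2 or 3 of ZT23 (adjusted p up to 0.143). Nfe2l2, at -0.21 (95% interval -0.34 to -0.091, adjusted p = 0.0550), was called without ZT03 replicate 1, ZT03 replicate 4 or ZT07 replicate 4 (adjusted p down to 0.0286), after quantile normalization (0.0451) and with array weights (0.0421).

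Differences within 3 pairs of genes were tested on each array, with p-values adjusted over the 3 pairs. In each pair the first gene had a called 24-h rhythm and the second had not. The pairs were chosen with earlier results of these data known, so their tests in part restate those of the single genes. Such a difference shows that 2 genes changed unequally, and not which of them has more RNA. Gclm minus Gclc went from -0.39 ± 0.09 (SD, n = 4) at ZT07 to 0.24 ± 0.17 at ZT15. At night it was 0.33 higher than in the day (95% interval 0.18 to 0.47, limma adjusted p = 0.000294), and its 24-h amplitude was 0.26 ± 0.051 (SE, adjusted p = 0.000182). The RNA balance between modifier and catalytic subunit thus differed between day and night, although Gclc alone was not called.

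Gsta3 minus Gsta4 was -0.18 ± 0.09 (SD, n = 4) at ZT07 and 0.31 ± 0.22 at ZT15, with a night minus day of 0.27 (95% interval 0.12 to 0.42, limma adjusted p = 0.00137) and an amplitude of 0.25 ± 0.050 (SE, adjusted p = 0.000182). The paralogs therefore differed in their daily change beyond the spread between arrays. Nfe2l2 minus Keap1 ran from -0.19 ± 0.17 (SD, n = 4) at ZT07 to 0.32 ± 0.07 at ZT15, and its amplitude was 0.20 ± 0.036 (SE, adjusted p = 9.11e-05). Night minus day of this pair was 0.17 (95% interval 0.087 to 0.25, adjusted p = 0.000523).

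**Figure D3:**
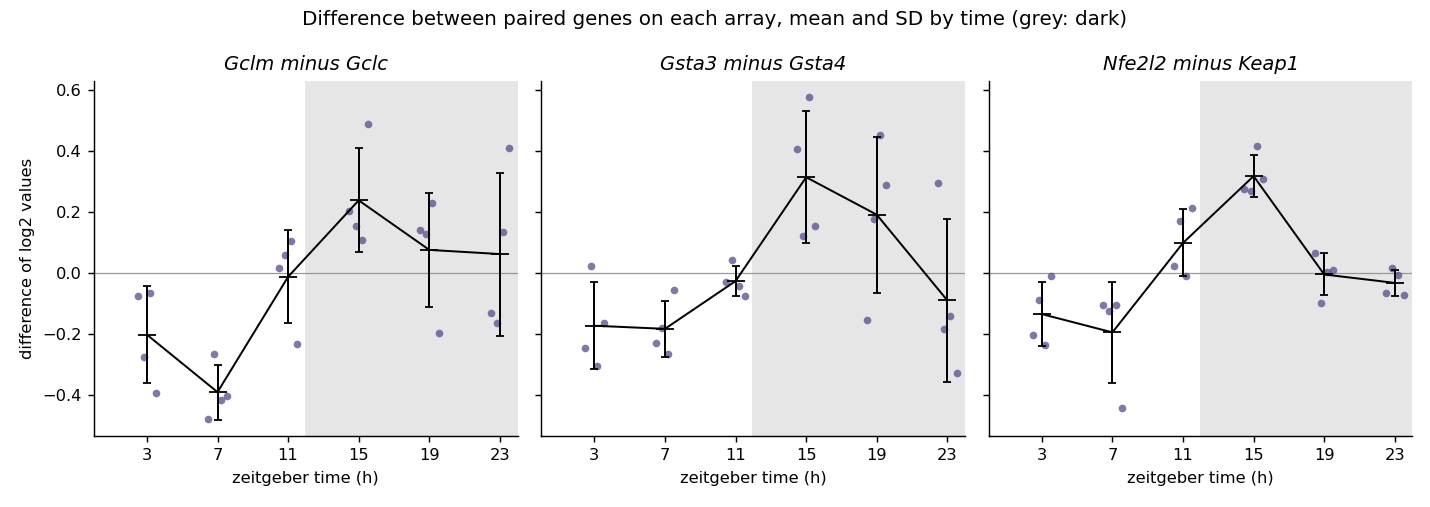
Difference of log2 values between paired genes on each array (points) against zeitgeber time in h, with mean and SD of 4 arrays (black) and the dark in grey. In all 3 pairs the mean is lowest at ZT07 and highest at ZT15, for Gclm minus Gclc from -0.39 to 0.24.

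Mice collected at the same time were compared next, by removing each time's mean, to see whether arrays with more Nfe2l2 RNA also had more RNA of its known targets. Over 24 arrays, of 8 target genes only Gclc passed the test (Pearson r = 0.58, two-sided permutation p = 0.00117, adjusted p = 0.00936 over the 8, Spearman rho = 0.71, permutation p = 0.00044, adjusted p = 0.00352). Without the 2 arrays farthest from the median of Nfe2l2, ZT07 replicate 4 and ZT03 replicate 1, r was 0.55. Without the 3 arrays of lowest weight r was 0.58, but the adjusted permutation p was 0.110. For the other genes with a called 24-h rhythm, r within times was 0.21 for Gclm (adjusted permutation p = 0.620), 0.16 for Gsta3 (0.620) and -0.095 for Hmox1 (0.740). Nqo1 (r = 0.37), Txnrd1 (0.27), Srxn1 (0.14) and Gsta4 (0.067) did not pass either, with adjusted permutation p from 0.452 to 0.740. Whether r of Gclc differs from that of the other genes was not tested. For the 7 genes other than Gclc, rho was between -0.079 and 0.34, with adjusted permutation p from 0.479 to 0.895, and r without the same 2 arrays between -0.34 and 0.33. Arrays share technical effects such as RNA quality and hybridisation, and their part in these relations was not tested.

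**Figure D4:**
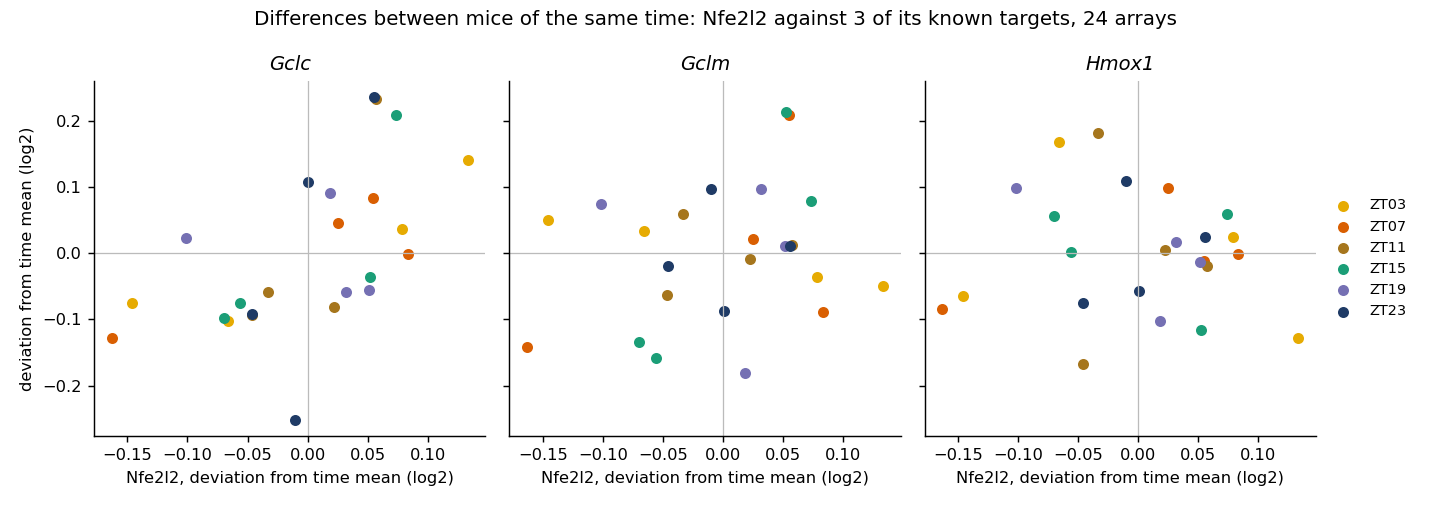
Deviation of Gclc, Gclm and Hmox1 from their time means against that of Nfe2l2, in log2 units, 1 point per array and a colour per time. The correlation is 0.58 for Gclc, 0.21 for Gclm and -0.095 for Hmox1, and only the first passed the test.

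By Pearson r over the 24 arrays, the genes most like the 4 rhythmic ones were named among 19387 others, as a description. Genes with predicted Gm or Rik symbols were left out of this comparison. Nfe2l2 was most like Slc43a3 (r = 0.86), which encodes a transporter of nucleobases, Grina (0.86) and Nid1, a basement membrane gene (0.85). Gclm was closest to the olfactory receptor gene Olfr1402, Angptl7 and Lyve1 (each 0.84). Gsta3 was closest to Lyve1 (0.87), found on tissue macrophages and lymphatic endothelium, Nid1 (0.87) and Fmo2, a flavin monooxygenase (0.86). Hmox1 was closest to Fmo2 (0.85), Ly6e (0.85) and Aebp1 (0.83). All of these genes had a called 24-h rhythm with a peak between ZT 14.7 and ZT 16.8. They were chosen for likeness to rhythmic genes on the same arrays, so a shared rhythm and peak time follow from that choice.

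Markers of macrophages and platelets also peaked mostly in the dark. Of 12 macrophage markers, 8 had a 24-h rhythm and 7 of these peaked in the dark, where over all genes 7.61% had a rhythm, 3.78% with a dark and 3.83% with a light peak. Their mean over the list ranged from -0.066 to 0.21 on night arrays and from -0.25 to 0.043 on day arrays. This list mean was highest at ZT15 and lowest at ZT07, as were Nfe2l2, Gclm, Gsta3 and Hmox1. Means over the platelet and atrial markers were also lowest at ZT07, and those over the remaining marker lists were not. The mean over the thioredoxin system genes named below was likewise highest at ZT15 and lowest at ZT07. Single rhythmic markers differed in phase. Peaks lay at ZT 12.8 for Cd163, ZT 16.2 for C1qc, ZT 16.8 for Lyve1 and ZT 18.5 for C1qb. C1qa peaked at ZT 19.3, Mrc1 at ZT 20.9, Adgre1 at ZT 21.4 and Cx3cr1 in the light at ZT 2.79. Of 8 platelet markers measured, 5 had a rhythm, all with dark peaks. The mean over the 8 ranged from -0.016 to 0.91 at night and from -0.19 to -0.051 in the day, and was highest at ZT23. Fibroblast markers had 5 of 10 called, 3 with dark and 2 with light peaks. Endothelial and ventricular markers had 2 of 10 each, all with light peaks, and none of 8 atrial or 7 adipocyte markers was called. Atrial markers still had a median night minus day of 0.086, and their mean ranged from -0.13 to 0.51 at night and from -0.20 to 0.25 in the day. Of 9 red cell markers only Slc4a1 was measured by a probe set of its own. The part of these cells in the changes of the NRF2 genes was not tested, and centred values cannot show whether a marker is present, so the labelled tissue could not be checked.

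Around these 10 genes, 78 of 91 listed genes of the same defence systems were measured, and 14 of them (17.9%) had a 24-h rhythm, against 7.61% of all genes. Of the 14, 10 peaked in the dark, as did 839 of the 1688 rhythmic genes of the whole array. Some of these dark peaks lay just after lights-off, with a negative night minus day that was not called. They were Sqstm1 (ZT 12.5, night minus day -0.058, limma adjusted p = 0.616), Ephx1 (ZT 12.5, -0.098, 0.361) and Idh1 (ZT 12.6, -0.045, 0.643). Mafg, with its peak at ZT 13.0, had a night minus day of 0.010 (limma adjusted p = 0.952). Night against day was called in 4 of the 78, 2 higher and 2 lower, a share near the 4.39% of all genes (1.89% higher and 2.49% lower). Their median amplitude was 0.077, and their median night minus day 0.018, against 0.040 and 0.0021 over all genes.

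Among regulators of NRF2, 3 of 13 had a rhythm. Sqstm1, whose product p62 binds KEAP1 and is itself an NRF2 target, changed 1.37-fold with a peak at ZT 12.5 (limma adjusted p = 0.000189). The small MAF partners Mafk (1.27-fold, peak in the light, adjusted p = 0.0380) and Mafg (1.20-fold, ZT 13.0, adjusted p = 0.0393) were the others. Nfe2l1, a relative of Nfe2l2, was not called (1.17-fold, adjusted p = 0.0743).

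Of 12 further genes of glutathione synthesis and recycling, only Chac2, which encodes a glutathione-degrading cyclotransferase, was called (1.45-fold, ZT 20.01, limma adjusted p = 0.00220). That share, 8.33%, is near the 7.61% of all genes. Glrx (1.38-fold, adjusted p = 0.0700), the glutathione reductase gene Gsr (1.15-fold, adjusted p = 0.0703) and Oplah (adjusted p = 0.222) came next. Glutathione transferases had 2 of 15 called, and these differed in phase. Gstt2 peaked in the light at ZT 9.95 (1.44-fold, adjusted p = 0.000100), and Gstt1 at ZT 15.97 (1.27-fold, adjusted p = 0.0123). Mgst1 (adjusted p = 0.0632) and Gstp1 (adjusted p = 0.116) were not called.

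Peroxidases and superoxide dismutases had 1 of 12 called, the extracellular glutathione peroxidase gene Gpx3 (1.43-fold, ZT 20.3, limma adjusted p = 0.0456). This share of 8.33% is also near that of all genes, 7.61%. Gpx1 (1.19-fold, adjusted p = 0.0661), the catalase gene Cat (1.56-fold, adjusted p = 0.107) and Sod3 (adjusted p = 0.238) were not. In the thioredoxin system 2 of 8 were called, the methionine sulfoxide reductase gene Msrb1 (1.36-fold, ZT 18.9, adjusted p = 0.00757) and Txn1, the thioredoxin that Txnrd1 reduces (1.18-fold, ZT 18.8, adjusted p = 0.0337). Txnrd3 (adjusted p = 0.255) and Msra (adjusted p = 0.311) followed.

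The list for NADPH supply and quinone or carbonyl reduction, which also took in an epoxide hydrolase and an aldehyde oxidase, had 3 of 11 genes called. All 3 peaked near lights-off. They were Ephx1, an epoxide hydrolase (1.77-fold, ZT 12.5, limma adjusted p = 3.08e-06), the NADPH-forming Idh1 (1.34-fold, ZT 12.6, adjusted p = 0.000105) and the aldehyde oxidase Aox1 (1.41-fold, ZT 10.9, adjusted p = 0.000147). Nqo2, a relative of Nqo1, had an adjusted p of 0.0580. Of 7 genes of haem and iron handling, the transferrin receptor gene Tfrc changed 1.99-fold with its peak at ZT 2.24 (adjusted p = 2.13e-05). Blvrb, which reduces biliverdin, changed 1.12-fold with its peak at ZT 17.2 (adjusted p = 0.0326). Fech (adjusted p = 0.0930) and Blvra (adjusted p = 0.247) were not called.

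**Figure D5:**
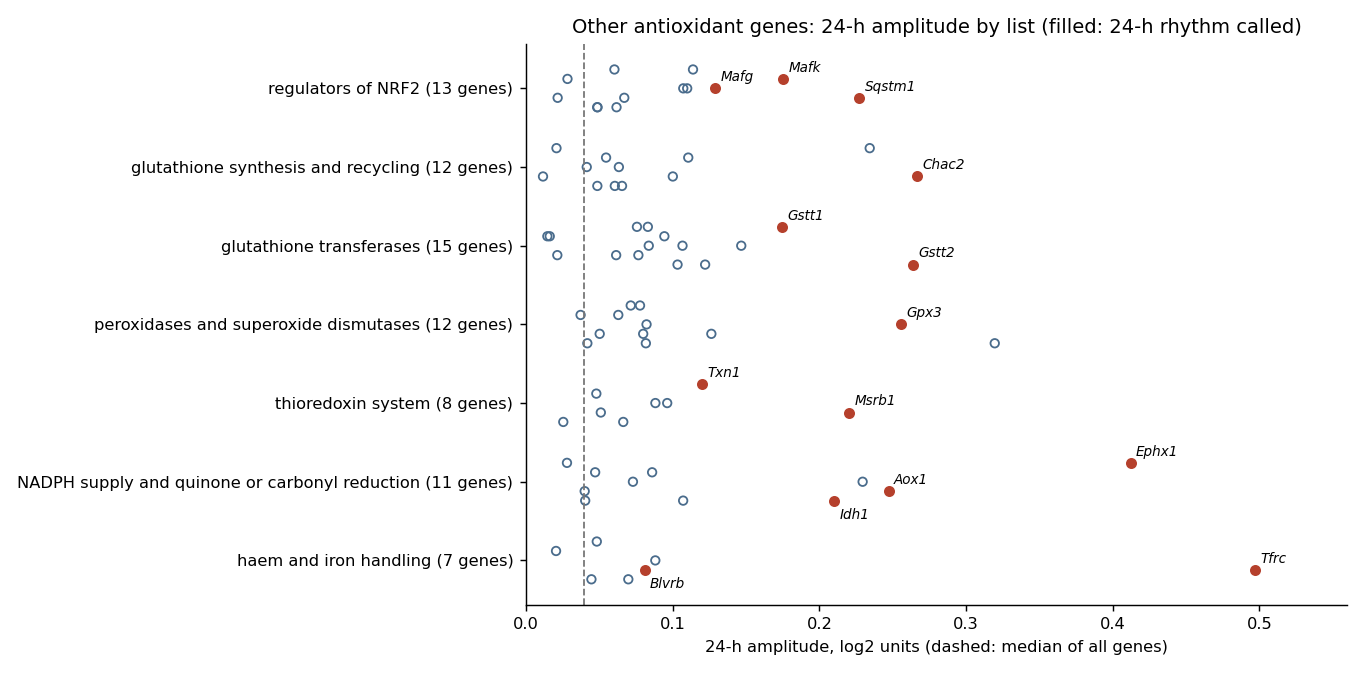
24-h amplitude in log2 units of 78 other antioxidant genes (circles), by list, with the median of all genes dashed. The 14 genes with a called 24-h rhythm are filled and named, and Tfrc (1.99-fold) and Ephx1 (1.77-fold) have the largest amplitudes.

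As facts of the whole series, the SD over 34351 probe sets of an array lay between 0.103 and 0.171 and array medians between -0.0022 and 0.0073. The 3 arrays of lowest weight were ZT15 replicate 1, ZT23 replicate 4 and ZT07 replicate 4, and without them the same 4 genes had a 24-h rhythm and the same 2 differed between night and day. The times span 24 h once, no batch is given in the labels, and a batch shared by the arrays of a time cannot be told apart from time.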

How the data were processed

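Per the labels' protocols, total RNA was extracted with TRIzol and biotinylated cRNA from 500 ng was hybridised to Affymetrix arrays. The deposited table holds 1 value per probe set and array, read as log2. Its base and direction (higher as more RNA) were assumed. For summarisation, background correction and normalization, the method is "not given in the sources used here". Deposited values have a median of 0 over the 24 arrays within 5e-07 in each probe set, so expression level, depth and signal over background are unknown, and no filter on dim genes was possible. The number of arrays limits the precision.

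Of 34351 probe sets, 23521 named 1 gene in the platform annotation, 1814 several and 9016 none. Probe sets with 1 gene were averaged into 22180 genes. Moderated tests were run in limma 3.58.1 (R 4.3.3) on all 24 arrays, with Benjamini-Hochberg adjustment over all genes and a threshold of 0.05. They were a cosine and sine of 24 h, any difference among the 6 times, night minus day and 3 contrasts of times 12 h apart. Amplitude is the fitted peak minus the mean, and the fold is 2 to the power of 2 amplitudes. Pairs were tested as per-array differences in the same fit. Correlations within times used 100000 permutations within times, and their smallest possible p was never reached. P-values set a difference against the spread between arrays of a time. In the 24-h test that spread also holds departures of the 6 time means from a cosine.

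The 24-h test was first run on simulated data with known rhythms, and the other tests were not. The rule for named genes was all 10 members, up to 4 genes of smallest p in each list, and 3 nearest patterns for each rhythmic member. Members, lists and tests were chosen with earlier results of these data known. The replicate numbers were not taken as pairs in the main fit. Same-numbered arrays deviated from their time means with a mean correlation of -0.014 (from -0.23 to 0.23). Alternatives were quantile normalization, median centring, array weights, robust eBayes, the probe set of largest SD, protein-coding genes only, a replicate block, and leaving out each array or the 3 of lowest weight.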

Additional observations from a re-analysis of the deposited data

Results flagged for a closer look

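Dixon's test was applied to the 4 arrays of each gene and time, 60 groups in all, of which chance marks about 1 in 20. It marked 2. Gclc in ZT11 replicate 4 had 0.30, while the other 3 arrays lay between -0.028 and 0.0071, a gap of 0.893 of the range. Nqo1 in ZT03 replicate 2 had 0.18, with the others between -0.080 and -0.047, a gap of 0.873 of the range.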

How the results depend on the processing

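The same 4 genes (Nfe2l2, Gclm, Gsta3, Hmox1) had a 24-h rhythm, and the same 4 differed between ZT15 and ZT03, as reported and under all alternatives run, including each array left out. The replicate number as a block left 4 genes with a 24-h rhythm and 2 between night and day, and took only the Nqo1 call among the 6 times (adjusted p = 0.0561). With time means removed, 8 of 24 arrays correlated best with an array of their own number, and whether the numbers pair arrays was not tested. Leaving out each array in turn moved the genes of this pathway called between ZT19 and ZT07 from 1 to 2, and between ZT23 and ZT11 from 0 to 3. Over all genes these counts ran from 168 to 465 and from 356 to 698. The correlation within times of Nfe2l2 without the 3 arrays of lowest weight was 0.58 for Gclc (adjusted p = 0.110), and turned to -0.028 for Gclm, -0.015 for Gsta4 and -0.00588 for Srxn1. Signs of uncalled differences turned as follows. Srxn1 at ZT19 minus ZT07 was -0.00103 after quantile normalization, -0.014 with array weights and -0.021 without the 3 arrays, and ran from -0.033 to 0.060 without single arrays. Gclc at ZT15 minus ZT03 was 0.0061 without the 3 arrays and ran from -0.096 to 0.020. Without single arrays, Gsta4 at ZT23 minus ZT11 ran from -0.061 to 0.048, Nqo1 at ZT15 minus ZT03 from -0.0099 to 0.091, and Txnrd1 from -0.028 to 0.047 at ZT19 minus ZT07 and from -0.025 to 0.11 at ZT23 minus ZT11. The causes were not tested. Dim probe sets cannot be told from bright ones, which limits all uncalled results.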
